A study of Mus musculus with 12 samples.

Results

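The genes described here are Myc and a set of genes that make ribosomes in the nucleolus, measured as raw read counts in C2C12 cells. The list named 40 genes for their known roles and not by a measured value, though with earlier results of these data known: Myc, polymerase I subunits, proteins of the small nucleolar ribonucleoproteins (snoRNPs), abundant nucleolar proteins and factors that process the small and large ribosomal subunits. Of these, 39 were rows of the 23446-gene table and Noc2l was not. All 39 had more than 10 reads over the 12 libraries and passed the filter on low counts, which left 12230 genes to test. The 38 genes other than Myc are called the nucleolar genes below.

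C2C12 is an established cell line grown from mouse muscle. Its myoblasts divide in growth medium (GM) and, once moved to differentiation medium (DM), leave the cell cycle and fuse into myotubes. The groups were DM-AA (differentiation medium with acetoacetate), DM-PBS (differentiation medium with the buffer PBS), GM-AA (growth medium with acetoacetate) and GM-PBS (growth medium with PBS). Acetoacetate (AA) is a ketone body that tissues can oxidise. Each group had 3 libraries, and AA or PBS was given for 12 h. All groups are the same cultured line with no genetic change stated. The labels name neither the salt of AA nor separate cultures for the libraries of a group. The p-values therefore reflect the spread among the libraries sequenced, and that spread may be technical.

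Ribosome production begins when polymerase I copies ribosomal RNA in the nucleolus. The snoRNPs then mark that RNA with methyl groups (box C/D) or pseudouridines (box H/ACA), and large assemblies of processing factors cut and fold it into the small and large subunits. Myc is a transcription factor that raises growth and activates many genes of this pathway, and both Myc and ribosome production are known to fall when myoblasts stop dividing and differentiate.

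AA and PBS cultures differed in Myc but not, in the same direction, in the nucleolar genes. Myc was lower with AA in both media, by a log2 fold change of -0.77 ± 0.061 (SE) in GM and -0.54 ± 0.070 in DM. None of the 38 nucleolar genes was lower with AA in either medium, where 13.8% of all tested genes were lower in DM and 11.0% in GM. Of the 38, 7 were higher in DM (18.4%, against 12.6% of all tested genes) and 4 in GM (10.5%, against 9.76%). In some alternative runs given below, Npm1 or Nhp2 was called lower with AA in GM. In DM-PBS, by contrast, Myc and 26 of the 38 nucleolar genes were lower than in GM-PBS, against 27.4% of all tested genes, and none was higher, against 27.0%. A gene counts as higher or lower here where its Benjamini-Hochberg adjusted p, over all 12230 genes, was under 0.05 in edgeR's quasi-likelihood test, and fold changes are given as log2 values ± SE with n = 3 libraries per group. RNA was taken from whole cultures, so fewer cells that express a gene and less of its RNA per cell cannot be told apart.

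**Figure D1:**
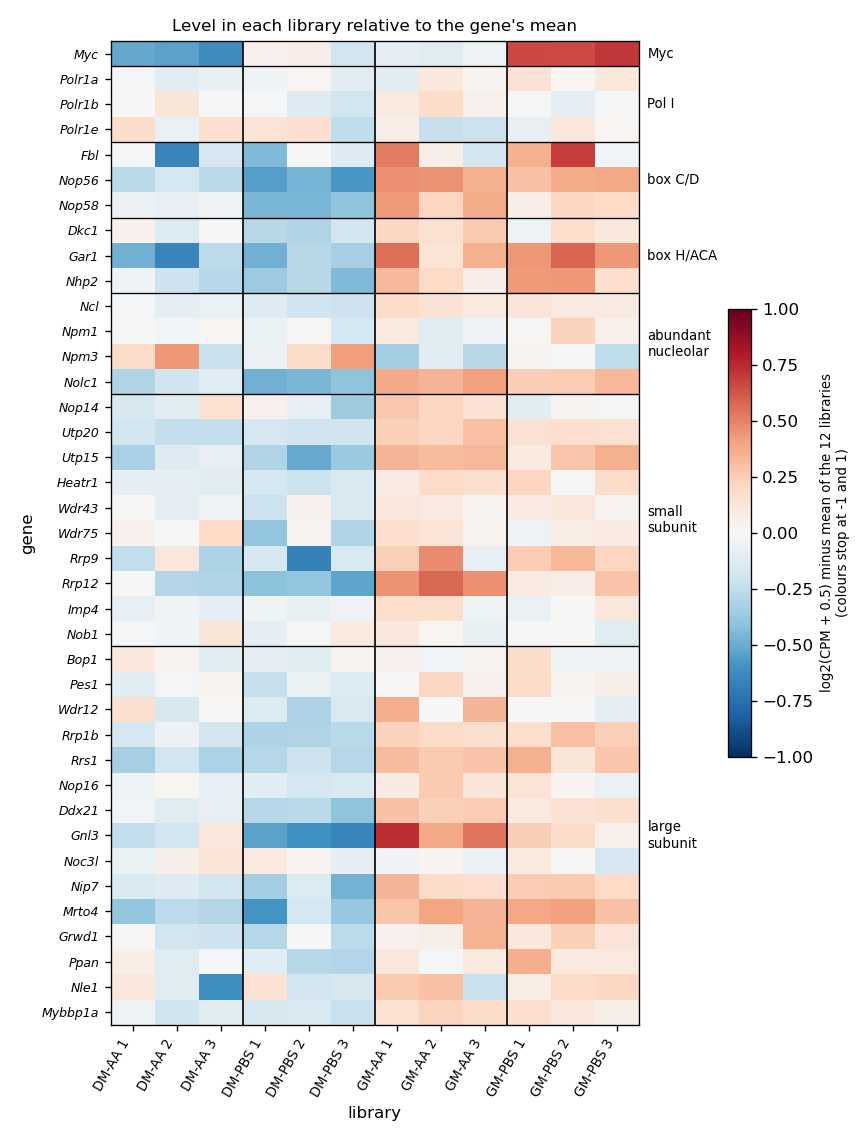
Each of the 39 genes (rows, by role) in each of the 12 libraries (columns, by group), coloured by its log2(CPM + 0.5) minus the gene's mean over the libraries. Most rows are lower in the 6 DM libraries than in the 6 GM libraries, and the Myc row is also lower in each AA group than in the PBS group of the same medium.

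Reads on genes summed to 8027518 to 8245402 per library in DM-AA, 7959519 to 9893564 in DM-PBS, 8484417 to 8801619 in GM-AA and 8292006 to 8965129 in GM-PBS. The 6 muscle markers (Des, Cdh15, Pax7 and the MyoD family members Myod1, Myf5 and Myog) were read in every group, and summed to 2422 to 2659 CPM in DM-AA, 2130 to 2163 in DM-PBS, 2142 to 2223 in GM-AA and 1879 to 1942 in GM-PBS. Markers of adipocytes (5), immune cells (5) and endothelium (4) summed to at most 4.05 CPM in any library. The 6 bone and cartilage markers, nearly all of them reads of Sox9, summed to 78.6 to 84.3 CPM in DM-AA against 119 to 145 CPM in DM-PBS, and to between 104 and 117 CPM in GM-AA against between 158 and 169 CPM in GM-PBS, with Ibsp at 0. The 5 epithelial markers, nearly all Krt19, summed to 29.4 to 30.6 CPM in DM-AA, 27.4 to 31.0 in DM-PBS, 69.0 to 75.8 in GM-AA and 84.6 to 87.6 in GM-PBS. The summed muscle level, mostly reads of Des, and the Sox9 level moved with AA and with the medium. The Krt19 level moved with the medium and, in GM, with AA. The 6 muscle markers did not all share one direction. With AA, 4 were higher and 1 lower in GM, and 4 higher and none lower in DM. In DM-PBS against GM-PBS, 4 were higher and 1 lower. The 1 lower was Myod1 both times, with 165, 184 and 186 CPM in GM-AA. It had 227, 232 and 217 CPM in GM-PBS and 165, 163 and 168 in DM-PBS. A dependence of counts on gene GC content also moved with AA: over 12144 genes, the Spearman correlation of a library's deviation with GC content ran between -0.148 and -0.0612 in DM-AA, against 0.127 and 0.150 in DM-PBS, and between -0.177 and -0.114 in GM-AA, against 0.00536 and 0.211 in GM-PBS. The part of these in the results below was not tested, except that each fit was also run with trends in GC content and gene length removed together. Below, this run is called removal of the GC trend, and its changes cannot be assigned to GC content alone.

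Myc had 39.0, 38.3 and 36.2 CPM in the DM-AA libraries, against 57.5, 58.4 and 49.0 CPM in the DM-PBS libraries. In growth medium it had 52.5, 51.2 and 53.9 CPM in GM-AA, against 88.5, 88.1 and 91.7 CPM in GM-PBS. Every AA library lay below every PBS library of its medium. The level was thus 0.688 times that of PBS in DM (adjusted p = 2.45e-07) and 0.588 times in GM (adjusted p = 3.19e-11), as fitted by edgeR. The media differed as well: Myc was lower in DM-PBS than in GM-PBS by -0.70 ± 0.061 (adjusted p = 1.02e-11) and lower in DM-AA than in GM-AA by -0.47 ± 0.070 (adjusted p = 7.42e-07, edgeR). All 4 calls held under each alternative run. The order of the 4 groups was DM-AA lowest, then GM-AA and DM-PBS, whose libraries overlapped, then GM-PBS. The AA effect in DM minus that in GM was 0.23 ± 0.093, with a 95% interval of 0.04 to 0.41, and did not pass the test over all genes (unadjusted p = 0.021, adjusted p = 0.18, edgeR). Myc lies on chromosome 15 at 61985391 to 61990374 on the plus strand (GENCODE M21, GRCm38) and had 303 to 778 reads per library.

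**Figure D2:**
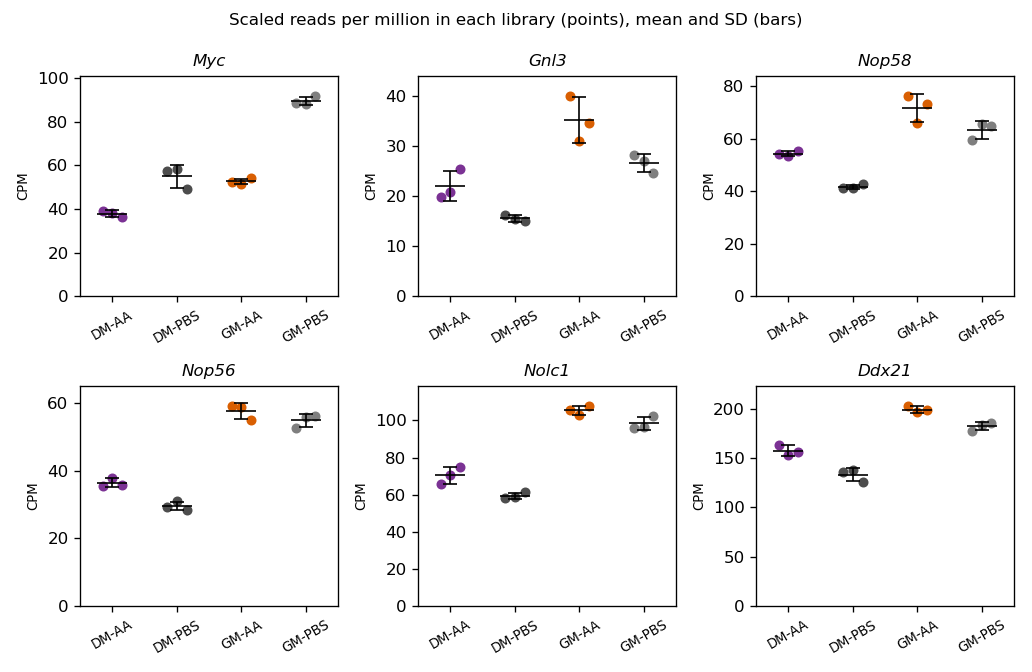
Level in CPM (vertical axis, from 0) of Myc, Gnl3, Nop58, Nop56, Nolc1 and Ddx21 in the 3 libraries of DM-AA, DM-PBS, GM-AA and GM-PBS. Points are libraries and the bar is the group mean ± SD. No polymerase I, box H/ACA or small subunit gene is shown. Myc is lower in AA than in PBS in both media, whereas Gnl3 and Nop58 are higher with AA in both. In GM the lowest Nop58 value of GM-AA (65.8 CPM) nearly meets the highest of GM-PBS (65.7 CPM). All 3 genes are lower in DM than in GM within the same treatment (AA or PBS).

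The promoters of the nucleolar genes were read for the sequence that Myc with its partner Max is known to bind, the E-box CACGTG, whose reverse complement is the same. RefSeq promoters, 250 bases before to 50 after each gene's start on GRCm38.p6, were found for 33 of the 38 genes; Bop1, Fbl, Npm1, Rrp12 and Rrs1 had no entry, and neither did Myc. CACGTG stood in 7 of the 33 (21.2%, 95% Wilson interval 10.7% to 37.8%), against 1085 of 9150 tested genes with a promoter (11.9%) and 2187 of 27025 genes in all (8.09%). The 7 are Grwd1, Imp4, Mybbp1a, Nle1, Pes1, Utp20 and Wdr43. In the 200 bases before the start it stood in 1 of 33 (3.03%, interval 0.537% to 15.3%), against 8.78% of tested genes and 6.0% of all, so 6 of the 7 matches lie just after the start. Of the 7, none was higher or lower with AA in either medium, where 12.6% of all tested genes were higher and 13.8% lower in DM, and 9.76% higher and 11.0% lower in GM. Between media in PBS, 5 of the 7 were lower in DM, against 27.4% of all tested genes. Among the 26 genes with a promoter and no CACGTG, 7 were higher with AA in DM, 3 in GM, and 18 were lower in DM-PBS than in GM-PBS. With so few genes, no difference between those with and without the motif is drawn from these counts. The other letters searched, CGCGAG or its reverse complement CTCGCG, stood in 24.2% of the 33 (8 genes), 24.5% of tested genes and 12.3% of all. A match is only a match of letters. The 4 promoters below show where the E-box lies; the capitals mark CACGTG, and the sequences run 5′ to 3′ on the gene's own strand. They are Imp4 (chr1:34439579-34439878, plus strand, E-box from base -121 relative to the start), Utp20 (chr10:88826765-88827064, minus strand, base 37), Pes1 (chr11:3963725-3964024, plus strand, base 2) and Mybbp1a (chr11:72441077-72441376, plus strand, base 40).
Imp4: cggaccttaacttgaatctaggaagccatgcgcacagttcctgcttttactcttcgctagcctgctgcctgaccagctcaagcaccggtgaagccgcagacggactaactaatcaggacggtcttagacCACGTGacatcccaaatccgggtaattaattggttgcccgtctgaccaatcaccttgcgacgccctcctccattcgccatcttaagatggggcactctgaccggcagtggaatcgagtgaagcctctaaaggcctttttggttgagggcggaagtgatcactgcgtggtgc
Utp20: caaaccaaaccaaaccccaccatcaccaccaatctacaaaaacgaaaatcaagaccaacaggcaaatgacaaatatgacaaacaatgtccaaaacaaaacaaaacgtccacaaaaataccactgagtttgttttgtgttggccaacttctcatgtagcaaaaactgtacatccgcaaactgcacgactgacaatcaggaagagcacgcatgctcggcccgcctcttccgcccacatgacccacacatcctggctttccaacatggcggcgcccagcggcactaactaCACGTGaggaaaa
Pes1: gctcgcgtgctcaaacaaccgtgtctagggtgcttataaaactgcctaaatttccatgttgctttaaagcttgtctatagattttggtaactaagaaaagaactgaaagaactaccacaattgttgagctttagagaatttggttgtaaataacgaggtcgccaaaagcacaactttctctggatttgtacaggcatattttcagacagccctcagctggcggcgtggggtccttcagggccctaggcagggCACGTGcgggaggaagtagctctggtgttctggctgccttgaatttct
Mybbp1a: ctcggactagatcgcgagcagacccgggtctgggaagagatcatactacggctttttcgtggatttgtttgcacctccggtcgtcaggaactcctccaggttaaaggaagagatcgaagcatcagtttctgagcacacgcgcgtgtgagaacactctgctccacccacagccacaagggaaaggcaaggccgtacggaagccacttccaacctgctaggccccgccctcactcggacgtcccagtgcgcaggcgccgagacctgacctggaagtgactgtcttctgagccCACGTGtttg

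With AA in differentiation medium, 7 of 38 nucleolar genes were higher (Nop56, Nop58, Ncl, Nolc1, Wdr75, Ddx21 and Gnl3) and none was lower, against 12.6% of all tested genes higher and 13.8% lower. Their median log2 fold change was 0.09, against 0.002 over all tested genes. The DM-AA and DM-PBS libraries did not overlap in 12 of the 38, each of them higher, where 19.9% of all tested genes were wholly higher and 20.2% wholly lower. Removing the GC trend again gave 7 higher, with Bop1 and Rrp1b in place of Ncl and Wdr75. In growth medium, 4 of 38 were higher (Nop58, Nop14, Rrp12 and Gnl3) and none was lower, against 9.76% of all genes higher and 11.0% lower. There the median was 0.02, against -0.003 over all tested genes. The GM-AA and GM-PBS libraries did not overlap in 9 genes, all higher, against 16.4% of all genes wholly higher and 17.6% wholly lower. The share of nucleolar genes higher with AA is thus near the background in GM, and the count there rests on single libraries: 2 without GM-AA replicate 1, 2 without GM-AA replicate 3 and 1 without GM-PBS replicate 1. DESeq2 called 1 higher in GM, Gnl3, and with the GC trend removed the count was 2 higher and Npm1 was lower (adjusted p = 0.00543). Npm1 was also called lower without GM-AA replicate 1, and Nhp2 without GM-PBS replicate 3. Gnl3 and Nop58 were higher in both media.

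**Figure D3:**
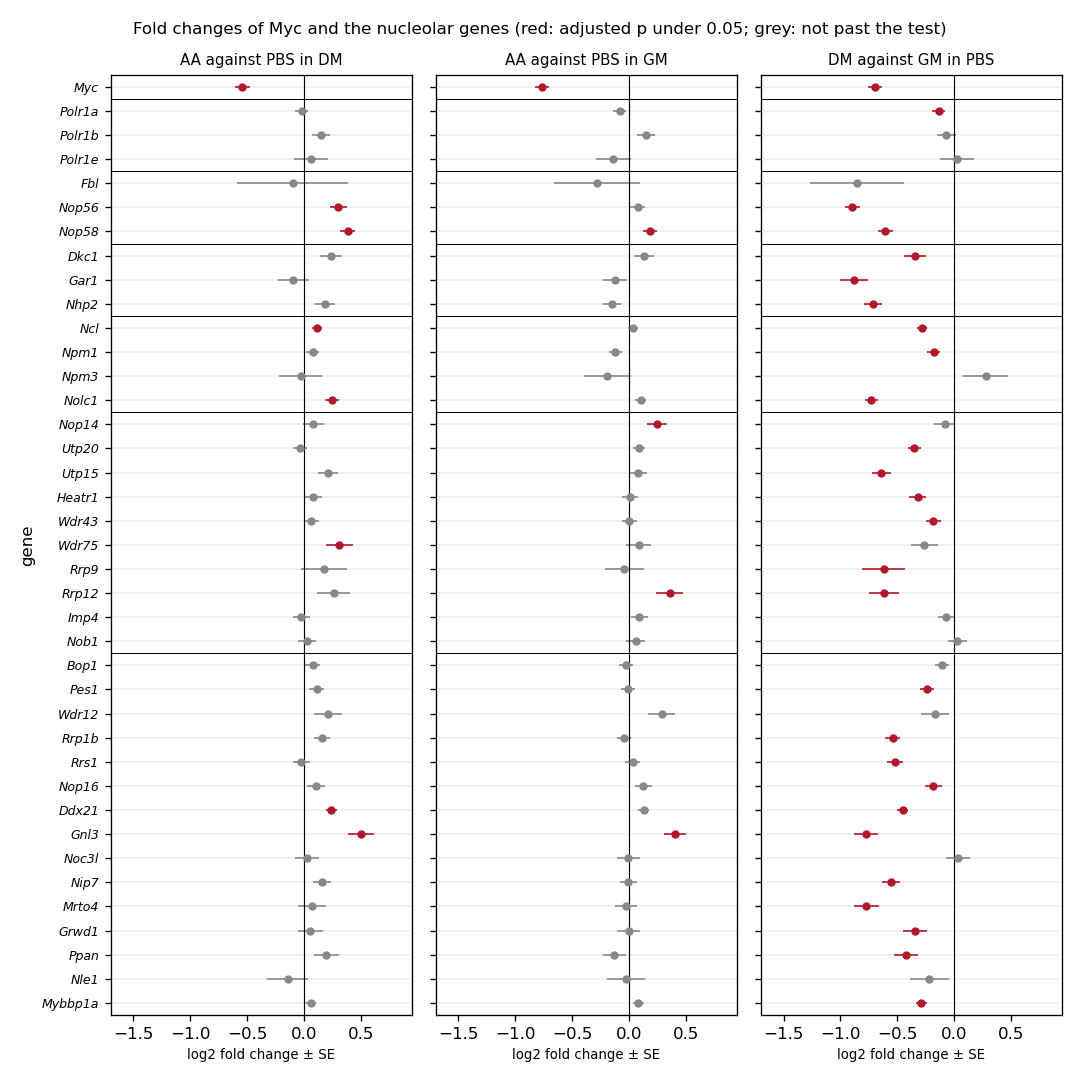
Log2 fold change ± SE of each gene (rows, by role) for AA against PBS in DM, AA against PBS in GM, and DM against GM in PBS; red points have an adjusted p under 0.05 in edgeR's test. Myc lies left of 0 in each panel, and the red points of the nucleolar genes lie right of 0 with AA and left of 0 for DM against GM.

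Between media without AA, 26 of 38 nucleolar genes were lower in DM-PBS than in GM-PBS and none was higher, against 27.4% of all tested genes lower and 27.0% higher. The median log2 difference was -0.33, against 0.007 over all tested genes. The DM-PBS libraries lay wholly below the GM-PBS libraries in 25 of the 38 genes, against 29.7% of all genes, and wholly above them in none, against 29.7%. Removing the GC trend again gave 26 lower, with Bop1 in place of Nop16. With AA in both media, 22 of 38 were lower in DM-AA than in GM-AA and none was higher, against 26.3% of all tested genes lower and 25.9% higher, with a median of -0.27. The libraries lay wholly lower in 21 of the 38, against 28.8% of all genes, and wholly higher in none, against 28.6%. When the GC trend was removed, Npm3 was called higher in DM-AA than in GM-AA (adjusted p = 0.0428, edgeR). Imp4 and Nop16 were then no longer called lower, and Rrp9 was. These comparisons share no library, and 20 genes were lower in both. The 38 genes together took 2318 to 2393 CPM in DM-AA, 2120 to 2219 in DM-PBS, 2724 to 2834 in GM-AA and 2681 to 2747 in GM-PBS. The 6 DM libraries therefore all lay below the 6 GM libraries, the DM-AA libraries all lay above those of DM-PBS, and the GM-AA and GM-PBS libraries overlapped. Without the abundant Ncl and Npm1 the GM sums did not overlap, at 1702 to 1735 CPM in GM-AA and 1639 to 1668 in GM-PBS. The comparison of media in PBS uses the same PBS libraries as the AA comparisons, so the values of a gene in both are given side by side only.

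The 3 polymerase I subunits varied little. Polr1a, the largest subunit, had 103, 97.0 and 99.2 CPM in DM-AA, 102, 105 and 96.7 in DM-PBS, 97.0, 112 and 106 in GM-AA and 115, 106 and 112 in GM-PBS. It was lower in DM-PBS than in GM-PBS by -0.14 ± 0.055 (adjusted p = 0.0378, edgeR), a call lost without replicate 1 or 3 of GM-PBS, without replicate 1 or 3 of DM-PBS and by DESeq2. A stricter low-count filter or the RPKM divisor as library size also lost it. Polr1b, the other large catalytic subunit, had 27.0, 29.4 and 27.0 CPM in DM-AA against 26.6, 24.7 and 23.7 in DM-PBS, and 28.9, 30.7 and 27.8 in GM-AA against 26.6, 25.4 and 26.8 in GM-PBS. Its AA libraries lay above the PBS libraries in both media, yet neither difference passed the test (0.15 ± 0.083 in DM, adjusted p = 0.192, and 0.15 ± 0.081 in GM, adjusted p = 0.207, edgeR). Polr1e, a smaller subunit, averaged 8.31 ± 0.832 CPM in DM-AA, 7.90 ± 1.30 in DM-PBS, 7.07 ± 0.896 in GM-AA and 7.81 ± 0.524 in GM-PBS (SD, n = 3 each) and passed no test.

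Nop56 and Nop58 of the box C/D particles were higher with AA in DM and lower in DM-PBS than in GM-PBS. Nop58, a core protein of these particles, had 54.1, 53.4 and 55.1 CPM in DM-AA against 41.0, 41.1 and 42.6 in DM-PBS, a difference of 0.39 ± 0.068 (adjusted p = 4.89e-05, edgeR). In growth medium it had 76.2, 65.8 and 73.2 CPM in GM-AA against 59.3, 65.7 and 64.9 in GM-PBS, a difference of 0.18 ± 0.061 (adjusted p = 0.0307). The GM call was lost without GM-AA replicate 1 (adjusted p = 0.167), GM-AA replicate 3 (0.0968) or GM-PBS replicate 1 (0.157), with the GC trend removed (0.167) and by DESeq2 (0.0929). Fitting the 2 GM groups alone also lost it. Nop56, the partner of Nop58 in the same core, had 35.6, 38 and 35.6 CPM in DM-AA against 29.2, 31.0 and 28.5 in DM-PBS (0.30 ± 0.074, adjusted p = 0.00236), and 59.3, 59.0 and 55.1 in GM-AA against 52.8, 55.9 and 56.1 in GM-PBS (0.08 ± 0.062, adjusted p = 0.425, edgeR). Between media in PBS, Nop56 was lower in DM by -0.89 ± 0.069 (adjusted p = 4.64e-13) and Nop58 by -0.61 ± 0.066 (adjusted p = 1.80e-09). Fbl, the methyltransferase of these particles, had only 3 to 14 reads per library and 93 in all, an uncertain level, and passed no test.

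All 3 box H/ACA proteins measured were lower in DM, and none passed the test with AA. Over all tested genes, 27.4% were lower in DM-PBS than in GM-PBS and 26.3% in DM-AA than in GM-AA. With AA, 12.6% of them were higher and 13.8% lower in DM, and 9.76% higher and 11.0% lower in GM. Nhp2, an RNA-binding subunit, had 42.7, 37.8 and 35.8 CPM in DM-AA against 33.9, 36.1 and 32.1 in DM-PBS, and 54.9, 50.4 and 45.8 in GM-AA against 58.9, 59.4 and 49.2 in GM-PBS. Its AA effect was 0.19 ± 0.087 in DM (adjusted p = 0.115) and -0.15 ± 0.077 in GM (adjusted p = 0.177), and the difference of the effects, 0.33 ± 0.12, did not pass the test (adjusted p = 0.0911, edgeR). Dkc1, the pseudouridine synthase, had 22.0, 19.4 and 21.4 CPM in DM-AA against 17.5, 17.3 and 18.6 in DM-PBS, libraries that did not overlap (0.24 ± 0.096, adjusted p = 0.0691, edgeR), and averaged 24.7 ± 0.927 in GM-AA and 22.6 ± 1.80 in GM-PBS (SD, n = 3 each). Gar1, a further subunit, had 9.82, 8.57 and 11.5 CPM in DM-AA, 9.77, 11.3 and 10.9 in DM-PBS, 20.6, 15.3 and 17.9 in GM-AA and 18.9, 20.9 and 18.9 in GM-PBS. Between media in PBS, Gar1 was lower by -0.88 ± 0.12 (adjusted p = 1.94e-07), Nhp2 by -0.71 ± 0.082 (adjusted p = 4.90e-09) and Dkc1 by -0.34 ± 0.095 (adjusted p = 0.00259, edgeR).

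The abundant nucleolar proteins include the most highly expressed genes of the set. Per length, Npm1 averaged 136 RPKM over the libraries and Ncl 49.1, while the median of the 38 genes was 7.84 RPKM and that of all tested genes 7.48. Nolc1, which binds snoRNPs, had 65.9, 70.4 and 74.6 CPM in DM-AA against 57.9, 58.9 and 61.3 in DM-PBS (0.25 ± 0.059, adjusted p = 0.00195, edgeR). In growth medium Nolc1 had 106, 103 and 108 CPM in GM-AA against 96.0, 96.7 and 102 in GM-PBS, without overlap, and did not pass the test (0.10 ± 0.052, adjusted p = 0.176). It was lower in DM-PBS than in GM-PBS by -0.73 ± 0.057 (adjusted p = 5.20e-13). Ncl, nucleolin, had 619, 586 and 600 CPM in DM-AA against 574, 548 and 543 in DM-PBS (0.12 ± 0.044, adjusted p = 0.0472), and this call was lost without DM-AA replicate 1 or 3, DM-PBS replicate 2 or 3, GM-AA replicate 2 or GM-PBS replicate 3, and with the GC trend removed (adjusted p = 0.37, edgeR). The call was also lost with no low-count filter and with replicate number in the model. Ncl had 712, 694 and 670 CPM in GM-AA against 683, 674 and 668 in GM-PBS, and was lower in DM-PBS than in GM-PBS by -0.28 ± 0.044 (adjusted p = 1.44e-06). Npm1, nucleophosmin, had 363, 355 and 367 CPM in DM-AA, 345, 364 and 320 in DM-PBS, 387, 332 and 352 in GM-AA and 364, 425 and 375 in GM-PBS, groups that overlap. It was called lower in DM-PBS than in GM-PBS (-0.18 ± 0.057, adjusted p = 0.00884), but not without GM-PBS replicate 2 (0.13) or DM-PBS replicate 3 (0.0735, edgeR). Npm3, its relative, had 32 to 53 reads per library and passed none of these tests.

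Among the 10 small subunit factors, 1 was higher with AA in DM, 2 in GM and 6 were lower in DM-PBS than in GM-PBS. As shares these were 10%, 20% and 60%, against 12.6%, 9.76% and 27.4% of all tested genes. With so few genes, the AA counts are not told apart from those shares. Rrp12, which helps to export pre-ribosomes, had 14.1, 15.3 and 14.1 CPM in GM-AA against 10.8, 10.7 and 12.5 in GM-PBS (0.36 ± 0.12, adjusted p = 0.0266, edgeR), a call lost without GM-AA replicate 2 or GM-PBS replicate 1 or 2 and by DESeq2. Its DM libraries, 10.2, 8.21 and 8.13 CPM in DM-AA against 7.53, 7.65 and 6.91 in DM-PBS, did not overlap and did not pass the test (0.26 ± 0.14, adjusted p = 0.182). Nop14, of the small subunit processome, had 38.1, 36.6 and 35 CPM in GM-AA against 29.2, 32.1 and 31.0 in GM-PBS (0.25 ± 0.089, adjusted p = 0.0431). That call was lost when any GM-AA library or GM-PBS replicate 1 or 3 was left out, by DESeq2, with replicate number in the model and with the GC trend removed (adjusted p = 0.0531, edgeR). In DM the groups overlapped, at 28.1, 29.1 and 35 CPM in DM-AA against 32.5, 29.7 and 24.6 in DM-PBS. Wdr75, of the same assembly, had 15.6, 15.1 and 17.5 CPM in DM-AA against 11.4, 15.4 and 12.2 in DM-PBS (0.31 ± 0.12, adjusted p = 0.0443), groups that overlap and a call lost without DM-AA replicate 1 or 3, without DM-PBS replicate 1 or 3, by DESeq2 and with the GC trend removed. Fitting the 2 DM groups alone or adding replicate number to the model also lost it. Between media the differences were larger. Utp15, of the subcomplex that joins transcription to processing, had 26.3, 22.8 and 25.0 CPM in DM-PBS against 34.8, 39.6 and 41.6 in GM-PBS (-0.64 ± 0.084, adjusted p = 7.19e-08, edgeR). Utp20, a large scaffold protein whose promoter is shown above, had 54.0, 52.7 and 52.7 CPM in DM-PBS against 67.4, 68.2 and 67.5 in GM-PBS (-0.35 ± 0.057, adjusted p = 3.85e-06). Rrp12 was lower by -0.62 ± 0.13 (adjusted p = 0.000210), and Heatr1, Rrp9 and Wdr43 were also called lower, Rrp9 not without DM-PBS replicate 2, and Wdr43 not without GM-PBS replicate 2 or DM-PBS replicate 1 or 3. DESeq2 did not call Wdr43 either. Imp4, Nob1, Nop14 and Wdr75 were not called, with differences of -0.26 to 0.03.

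Among the 15 large subunit factors, 2 were higher with AA in DM, 1 in GM and 11 were lower in DM-PBS than in GM-PBS. As shares these were 13.3%, 6.67% and 73.3%, against 12.6%, 9.76% and 27.4% of all tested genes, so the AA counts are near or below the background. With the GC trend removed the 2 higher with AA in DM became 4, with Bop1 (adjusted p = 0.0420) and Rrp1b (adjusted p = 0.0407, edgeR). Gnl3, nucleostemin, a GTPase that moves between nucleolus and nucleoplasm and is abundant in dividing stem cells, was higher with AA in both media. It had 19.9, 20.7 and 25.5 CPM in DM-AA against 16.2, 15.4 and 14.9 in DM-PBS (0.50 ± 0.11, adjusted p = 0.000936), and 39.9, 31.0 and 34.5 CPM in GM-AA against 28.2, 27.0 and 24.5 in GM-PBS (0.40 ± 0.094, adjusted p = 0.00187, edgeR). The AA libraries lay above the PBS libraries in both media, and both calls held under all alternatives run. Other genes on the same strand cover 3.85% of the Gnl3 exons, so its level is uncertain to that extent. Gnl3 was lower in DM-PBS than in GM-PBS by -0.77 ± 0.11 (adjusted p = 2.57e-07). Ddx21, an RNA helicase that works with polymerase I and on pre-ribosomes, had 163, 153 and 156 CPM in DM-AA against 136, 138 and 125 in DM-PBS (0.24 ± 0.050, adjusted p = 0.000335, edgeR). In growth medium Ddx21 had 203, 196 and 198 CPM in GM-AA against 178, 183 and 186 in GM-PBS, without overlap, and just missed the threshold (0.13 ± 0.047, adjusted p = 0.0513). It was lower in DM-PBS than in GM-PBS by -0.45 ± 0.049 (adjusted p = 1.36e-09). Rrp1b had 39.4, 42.7 and 39.1 CPM in DM-AA against 35.8, 36.1 and 36.8 in DM-PBS, without overlap (0.16 ± 0.070, adjusted p = 0.0935), and 52.2, 50.9 and 49.8 in GM-AA against 50.4, 54.9 and 52.7 in GM-PBS. Between media in PBS it was lower by -0.54 ± 0.066 (adjusted p = 2.15e-08, edgeR).

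The other large subunit factors were described by their averages. Mrto4, which assembles the stalk of the large subunit, averaged 12.2 ± 1.84 CPM in DM-PBS and 20.7 ± 0.915 in GM-PBS, Nip7 31.3 ± 3.74 and 46.1 ± 1.15, and Rrs1 37.0 ± 1.17 and 52.9 ± 4.39 (SD, n = 3 each). Mybbp1a, Grwd1, Ppan, Pes1 and Nop16 were also called lower in DM-PBS, by -0.42 to -0.18. The Nop16 call was lost when any DM-PBS library or GM-PBS replicate 1 or 2 was left out. It was also lost by DESeq2, with no or a stricter low-count filter, the RPKM divisor as library size, or the 2 groups fitted alone. Of the complex of Bop1, Pes1 and Wdr12, which acts in large subunit maturation, Pes1 was called lower and the others were not. Bop1 was called lower too once the GC trend was removed (adjusted p = 0.0123, edgeR), and Nop16 was not (adjusted p = 0.1). Bop1 averaged 79.5 ± 4.63 CPM in DM-PBS and 85.3 ± 7.62 in GM-PBS and Wdr12 12.3 ± 0.817 and 13.8 ± 0.498. Noc3l and Nle1 were not called either. With AA, the 12 large subunit factors other than Gnl3, Ddx21 and Rrp1b had log2 fold changes of -0.14 to 0.21 in DM and -0.13 to 0.29 in GM, and none passed the test.

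**Figure D4:**
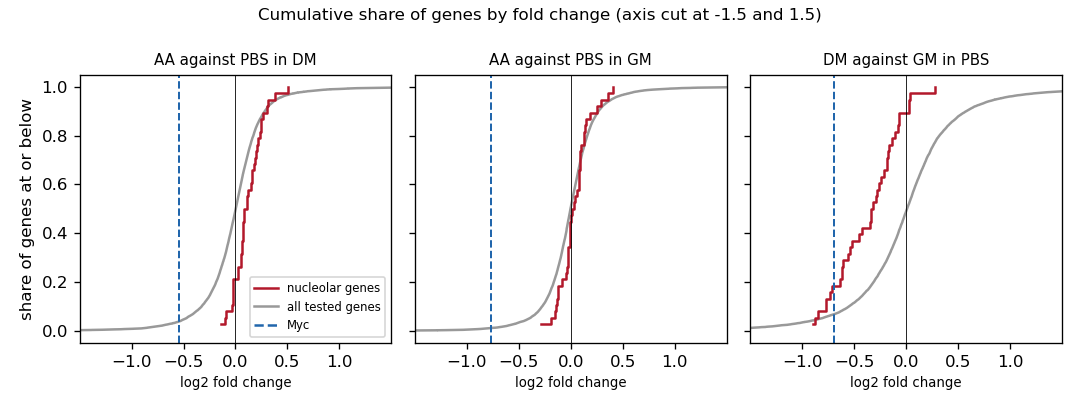
Cumulative share (vertical axis, 0 to 1) of the 38 nucleolar genes and of all 12230 tested genes up to each log2 fold change (horizontal axis), for AA against PBS in DM, AA against PBS in GM, and DM against GM in PBS, with Myc as a vertical line. The curve of the nucleolar genes lies left of that of all genes for DM against GM, where its median is -0.33, and near it for AA in GM, where its median is 0.02.

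No nucleolar gene's AA effect was shown to differ between media: none of the 38 passed the test of the difference, where 5.24% of all tested genes did. At an unadjusted p under 0.05 there were 6 of 38, and DESeq2 called 0. The median difference of effects, DM minus GM, was 0.10, with 28 of 38 positive, against -0.001 over all tested genes. Without GM-AA replicate 1 the count was 2 (Nhp2 and Npm1), and without GM-PBS replicate 3 it was 1 (Nhp2).

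Other genes of the pathway, from lists written beside the members, were read in the same fits. A gene is named for the comparisons in which its p was among the 2 smallest of its list. A value for AA in only 1 medium therefore does not mean that the other medium showed no difference. For reading their counts, the shares over all tested genes were 12.6% higher and 13.8% lower with AA in DM, 9.76% higher and 11.0% lower with AA in GM, and 27.0% higher and 27.4% lower in DM-PBS than in GM-PBS. Of 45 other small subunit factors, 8 were higher and none lower with AA in DM, 6 were higher and 3 lower with AA in GM, and 6 were higher and 19 lower in DM-PBS than in GM-PBS. As shares, 17.8% were higher with AA in DM and 13.3% in GM, near those of all tested genes, and 42.2% were lower in DM-PBS. The 8 became 5 without DM-PBS replicate 1 or 2, the 3 became 1 without GM-AA replicate 1 and 0 without GM-PBS replicate 1, and the 6 higher in DM-PBS became 3 without DM-PBS replicate 2; 1 was lower with AA in DM without GM-AA replicate 1 or 3, DM-AA replicate 1 or DM-PBS replicate 2. Utp14b, a factor of the small subunit processome, was higher with AA in DM (0.32 ± 0.061, adjusted p = 0.000112) and in GM (0.36 ± 0.068, adjusted p = 0.000196, edgeR). It was also higher in DM-PBS than in GM-PBS (0.55 ± 0.066, adjusted p = 1.39e-08, edgeR). Another gene on the same strand covers 3.18% of its exons and it has 1 named pseudogene, so its level is uncertain. Further genes with values here share this limit, among them Nop56 (8.0% on the same strand) and Taf1d (10.1%). On the opposite strand, other genes cover 39.4% of the Mak16 exons and 32.3% of those of Tsr1, and the strand of the reads is not given. Hspe1 has 6 named pseudogenes, and Mrto4 and Ldha have 2 each. Pno1, a factor of late small subunit assembly, was higher with AA in DM (0.37 ± 0.085, adjusted p = 0.00116) and lower in DM-PBS than in GM-PBS (-0.61 ± 0.083, adjusted p = 1.19e-07), and Tsr1, of the same stage, was higher with AA in GM (0.33 ± 0.069, adjusted p = 0.000656, edgeR). In the other medium, too, the AA libraries of both lay above those of PBS. Pno1 had 46.8, 41.5 and 44.0 CPM in GM-AA against 33.1, 38.2 and 35.9 in GM-PBS. Tsr1 had 42.5, 42.5 and 48.9 CPM in DM-AA against 34.5, 37.6 and 35.4 in DM-PBS. Of 49 other large subunit factors, 7 were higher and none lower with AA in DM, 6 were higher and 2 lower with AA in GM, and 1 was higher and 20 lower in DM-PBS than in GM-PBS. As shares these were 14.3% higher with AA in DM, 12.2% in GM and 40.8% lower in DM-PBS. Here the 7 became 4 without DM-AA replicate 3 and 3 without DM-PBS replicate 1, the 6 became 3 without GM-AA replicate 1, the 2 became 1 without GM-AA replicate 3 and 0 without GM-PBS replicate 1, and the 20 became 12 without DM-PBS replicate 1. The 1 higher became 2 without GM-AA replicate 1 or 2 or GM-PBS replicate 3, and 1 or 2 were lower with AA in DM without DM-AA replicate 1, DM-PBS replicate 3, GM-AA replicate 1 or GM-PBS replicate 1. Mak16 (0.36 ± 0.077, adjusted p = 0.000797) and Sdad1 (0.35 ± 0.075, adjusted p = 0.000858, edgeR) were higher with AA in GM, and their DM-AA libraries also lay above those of DM-PBS. Ddx31, an RNA helicase, was higher with AA in DM (0.45 ± 0.11, adjusted p = 0.00329, edgeR), and its GM-AA libraries also lay above those of GM-PBS. Eif6, which keeps the new large subunit from joining the small one too early, was lower in DM-PBS than in GM-PBS (-0.46 ± 0.057, adjusted p = 2.78e-08, edgeR). Lyar, a nucleolar protein of growing cells, was higher with AA in DM (0.37 ± 0.095, adjusted p = 0.00344) and lower in DM-PBS than in GM-PBS (-0.88 ± 0.089, adjusted p = 2.93e-10, edgeR).

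The other polymerase I genes did not share one direction between media. Of 14 tested, 4 were higher and 1 lower with AA in DM, 2 were higher with AA in GM, and 5 were higher and 2 lower in DM-PBS than in GM-PBS; the 2 became 4 without GM-AA replicate 2 and 1 without GM-AA replicate 1 or 3 or GM-PBS replicate 1. Ptrf, named for releasing polymerase I transcripts and known chiefly as a protein of caveolae, was lower with AA in DM (-0.22 ± 0.042, adjusted p = 0.000121) and higher in DM-PBS than in GM-PBS (0.21 ± 0.042, adjusted p = 8.27e-05, edgeR). Ubtf, the factor that opens ribosomal RNA genes, was higher with AA in DM (0.21 ± 0.051, adjusted p = 0.00222, edgeR). Taf1d (0.36 ± 0.087, adjusted p = 0.00242) and Rbm34 (0.29 ± 0.099, adjusted p = 0.0350, edgeR) were higher with AA in GM. Taf1d also had 26.4, 27.4 and 28.9 CPM in DM-AA against 21.4, 24.7 and 19.3 in DM-PBS, without overlap. The Rbm34 libraries overlapped in DM. The Rbm34 call was lost without GM-AA replicate 1 or 3 or GM-PBS replicate 1 or 2, by DESeq2 and with the GC trend removed. Cd3eap, a polymerase I subunit, was lower in DM-PBS than in GM-PBS (-0.87 ± 0.080, adjusted p = 3.53e-11, edgeR). Of 22 genes of polymerase III, which makes the smallest ribosomal RNA and transfer RNAs, 3 were higher and 2 lower with AA in DM, 1 was higher and 3 lower with AA in GM, and 6 were higher and 5 lower in DM-PBS than in GM-PBS. The 2 fell to 1 or 0 when any DM library, GM-AA replicate 2 or GM-PBS replicate 3 was left out, the 3 lower in GM to 1 without GM-AA replicate 1 or 2 or GM-PBS replicate 1, and the 5 to 3 without DM-PBS replicate 1; the 1 higher in GM ranged from 0 without GM-AA replicate 2 or 3 to 2 without GM-AA replicate 1. Gtf3c4, of the polymerase III factor TFIIIC, was higher with AA in DM (0.37 ± 0.049, adjusted p = 3.64e-07) and in GM (0.17 ± 0.051, adjusted p = 0.0144, edgeR), the GM call not without GM-AA replicate 2 or 3 or GM-PBS replicate 2. Crcp, a subunit, was higher with AA in DM (0.30 ± 0.077, adjusted p = 0.00352, edgeR). Polr3b, a large subunit, was higher in DM-PBS than in GM-PBS (0.57 ± 0.068, adjusted p = 8.70e-09, edgeR). Maf1, the repressor of polymerase III, was lower with AA in GM (-0.33 ± 0.069, adjusted p = 0.000764) and higher in DM-PBS than in GM-PBS (0.49 ± 0.064, adjusted p = 6.87e-08, edgeR). Of 10 other snoRNP proteins and assembly factors, none passed the test with AA in DM or GM (1 in DM and 2 in GM at an unadjusted p under 0.05, and 0 by DESeq2), and 1 was higher and 6 were lower in DM-PBS, among them Nhp2l1 (-0.39 ± 0.066, adjusted p = 6.08e-06, edgeR), a protein of box C/D particles and the spliceosome, and Ruvbl2 (-0.49 ± 0.10, adjusted p = 0.000124, edgeR), an ATPase that assembles them.

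Nucleotide synthesis, which supplies the building blocks of ribosomal RNA, moved with the medium. Of 20 genes, 14 were lower and 2 higher in DM-PBS than in GM-PBS, among them Ctps, which makes CTP (-1.09 ± 0.072, adjusted p = 8.34e-15), and Umps, which makes UMP (-0.84 ± 0.055, adjusted p = 7.64e-15, edgeR). With AA, 5 were higher in DM, among them Umps (0.28 ± 0.057, adjusted p = 0.000313) and Impdh1 of guanine nucleotide synthesis (0.26 ± 0.059, adjusted p = 0.00115), and 1 in GM, Nme2 (0.15 ± 0.056, adjusted p = 0.0457, edgeR), with none lower in either. The 5 became 3 without DM-PBS replicate 3, and the Nme2 call was lost without GM-AA replicate 1 or 2, GM-PBS replicate 2 or 3, DM-AA replicate 2 or DM-PBS replicate 2. The Nme2 call was also lost by DESeq2, with the 2 GM groups fitted alone and with replicate number in the model. Other genes on the same strand cover 48.9% of the Nme2 exons, so its level is uncertain. The 2 higher in DM-PBS became 1 when any GM library was left out, and without DM-AA replicate 2 or DM-PBS replicate 1 or 3. Of 52 tested ribosomal protein genes, 7 were higher with AA in DM and none lower, 3 were higher and 10 lower with AA in GM, and 7 were higher and 11 lower in DM-PBS than in GM-PBS. Single libraries moved these counts: the 7 with AA in DM became 3 without DM-AA replicate 3 or DM-PBS replicate 1, with 1 lower without DM-AA replicate 1 or DM-PBS replicate 2, and the 3 with AA in GM became 1 without GM-AA replicate 2. The 10 lower with AA in GM became 3 without GM-AA replicate 2 or GM-PBS replicate 1, 4 without GM-AA replicate 3 and 5 without GM-PBS replicate 2. Between media, the 7 became 3 without GM-PBS replicate 1 or DM-PBS replicate 3 and 4 without GM-PBS replicate 3, and the 11 became 5 without GM-PBS replicate 2 and 6 without DM-PBS replicate 1. With the GC trend removed, 17 were higher in DM-PBS than in GM-PBS, 11 were higher with AA in DM and 4 lower with AA in GM. Rpl15 was higher with AA in DM (0.39 ± 0.066, adjusted p = 2.45e-05) and in GM (0.38 ± 0.068, adjusted p = 7.54e-05, edgeR). Rpl13a was higher with AA in DM (0.20 ± 0.050, adjusted p = 0.00322), and Rps14 was lower with AA in GM (-0.34 ± 0.072, adjusted p = 0.000682, edgeR). Rps25 (-0.62 ± 0.12, adjusted p = 4.82e-05) and Rps24 (-0.44 ± 0.094, adjusted p = 0.000187, edgeR) were lower in DM-PBS than in GM-PBS. Of all 76 ribosomal protein genes in the table, 14 had 0 reads in every library, and many have near-identical pseudogenes, so their levels are uncertain.

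Genes outside the nucleolus that are known to respond to Myc in other systems were in part higher with AA, while Myc was lower. Of 18 such genes, 9 were higher and none lower with AA in DM, 5 were higher and none lower with AA in GM, and 18 were lower in DM-PBS than in GM-PBS. Over all tested genes, 12.6% were higher with AA in DM, 9.76% higher with AA in GM and 27.4% lower in DM-PBS. Without GM-AA replicate 1 the 5 became 3, with 1 lower. Tfrc, the transferrin receptor, was higher with AA in DM (0.33 ± 0.045, adjusted p = 7.48e-07) and in GM (0.33 ± 0.043, adjusted p = 5.28e-07), and lower in DM-PBS than in GM-PBS (-0.85 ± 0.045, adjusted p = 1.99e-17, edgeR). Eif4e, the cap-binding factor of translation, was higher with AA in DM (0.34 ± 0.056, adjusted p = 1.55e-05), Hspe1, a mitochondrial chaperone, was higher with AA in GM (0.41 ± 0.065, adjusted p = 1.91e-05), and Ldha, lactate dehydrogenase, was lower in DM-PBS than in GM-PBS (-1.04 ± 0.045, adjusted p = 8.79e-20, edgeR). The Eif4e libraries of GM-AA also lay above those of GM-PBS, and the Hspe1 libraries of DM-AA above those of DM-PBS. Of 12 tested partners and antagonists of Myc, 2 were higher and 3 lower with AA in DM, 1 was higher and 4 lower with AA in GM, and 4 were higher and 3 lower in DM-PBS than in GM-PBS. The 2 became 1 without DM-AA replicate 2 or 3 or DM-PBS replicate 3, the 1 higher in GM became 2 without GM-AA replicate 1, and the 3 lower in DM-PBS became 1 without GM-PBS replicate 2. Mxi1, which competes with Myc for Max, was lower with AA in DM (-0.48 ± 0.066, adjusted p = 9.20e-07) and in GM (-0.44 ± 0.062, adjusted p = 3.11e-06). Mxd4, a related antagonist, was lower with AA in GM (-0.70 ± 0.10, adjusted p = 3.37e-06) and higher in DM-PBS than in GM-PBS (1.51 ± 0.077, adjusted p = 1.07e-17). In DM the Mxd4 libraries were also lower with AA, at 45.8, 47.2 and 43.2 CPM in DM-AA against 66.8, 58.9 and 60.4 in DM-PBS. Its difference of AA effects between media did not pass the test (0.25, adjusted p = 0.294, edgeR). Mycl, a relative of Myc, was higher with AA in DM (0.64 ± 0.074, adjusted p = 3.75e-08) and higher in DM-PBS than in GM-PBS (2.11 ± 0.10, adjusted p = 1.63e-18, edgeR), while Myc was lower in both of those comparisons.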

How the data were processed

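RNA of 12 C2C12 libraries, 3 per group by the labels' titles, was read from 1 deposited table. It holds raw counts per gene and RPKM, per the file headers. Counts and gene lengths gave back the deposited RPKM within 0.0005%, with a per-library divisor of which the counts are 63.2% to 64.9%. Per the submitters' processing notes, the aligner was BWA 0.5.9-r16 and the build mm9. Not given in the sources used here are the counting rule, the strand, the annotation and what was done with reads of several matches, so overlapping genes and near-identical copies are uncertain. Every column was matched to a sample.

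Counts were tested with edgeR 4.0.16 (R 4.3.3): filterByExpr by group, TMM, 1 model of 4 group means, glmQLFit and glmQLFTest, two-sided, with Benjamini-Hochberg adjustment over 12230 genes at a 5% false discovery rate. The residual degrees of freedom were 8 and the common biological coefficient of variation 4.08%. CPM are TMM scaled. The median SE of a log2 fold change was 0.0819 for AA in DM and 0.081 in GM. Counts of replicate libraries differed by a chi-square of 1.45 to 2.89 per degree of freedom, where counting noise alone gives about 1. The fit was tested on simulated data. DESeq2 1.42.0 and its size factors, no or a stricter filter (mean of 50 reads), the RPKM divisor as library size, the 2 groups alone, a replicate block, GC and length trend removal and leaving out each library were the alternatives. Gene positions, GC content and overlaps came from GENCODE M21 (GRCm38), another build than that of the reads. Promoters came from RefSeq (GRCm38.p6).

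Values are given for Myc and, in each role, up to 2 genes with the smallest p for AA in DM, AA in GM and the media in PBS; from each other list of the pathway, up to 2 genes with the smallest p past the threshold in each of the same comparisons. Promoters printed are the 4 with CACGTG and the smallest p with AA. The genes were named for their roles, and they, the lists and the tests were chosen with earlier results of these data known.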

Additional observations from a re-analysis of the deposited data

Results flagged for a closer look

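In 2 genes of the other pathway lists, the AA effect differed between the media by the test of the difference. Of the 6 muscle markers, 3 also passed it in edgeR: Myod1 (0.40, adjusted p = 0.000341), Myog (0.59, adjusted p = 0.0105) and Myf5 (-0.37, adjusted p = 0.0207). Mxd3, an antagonist of Myc, had a difference of effects, DM minus GM, of 0.64 ± 0.13 (SE, adjusted p = 0.00203, edgeR). It had 25.2, 27.1 and 23.6 CPM in DM-AA against 22.5, 26.0 and 22.6 in DM-PBS (0.09 ± 0.092, adjusted p = 0.498), and 20.5, 20.6 and 17.2 CPM in GM-AA against 27.2, 29.9 and 27.8 in GM-PBS (-0.54 ± 0.093, adjusted p = 5.70e-05). The libraries overlap in DM and do not overlap in GM. Umps, of pyrimidine synthesis, had a difference of effects of 0.39 ± 0.077 (adjusted p = 0.00148, edgeR). It had 96.5, 83.5 and 88.2 CPM in DM-AA against 73.1, 76.2 and 71.3 in DM-PBS (0.28 ± 0.057, adjusted p = 0.000313), and 120, 128 and 118 CPM in GM-AA against 133, 131 and 130.0 in GM-PBS (-0.10 ± 0.052, adjusted p = 0.157). Its AA libraries lie above the PBS libraries in DM and below them in GM. The Mxd3 and Umps differences passed the test in each of the 20 alternatives run, and that of Myog in 18.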

How the results depend on the processing

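No called fold change of the named genes changed sign under an alternative. The Myc calls and the Gnl3 calls for AA in both media held in all alternatives. Of the called genes, Myc included, 6 of 8 for AA in DM, 2 of 5 for AA in GM, 22 of 27 for DM against GM in PBS and 18 of 23 in AA were called in each. In GM the 4 genes higher with AA became 1 by DESeq2, and 2 after removal of the trend in GC content and length, with or without the replicate block; the genes lower, Myc alone, became 2 under both. With the GC trend removed, again with or without the block, 1 gene (Npm3) was higher in DM-AA than in GM-AA. The median of the 38 nucleolar genes for DM against GM in PBS was -0.33, and it was -0.31 with a mean of at least 50 reads and -0.30 with the RPKM divisor. The test of the difference of AA effects called 1 gene, Nhp2, with no low-count filter, with the replicate block and with the block and GC trend removal. The share of promoters with CACGTG, 21.2%, was 3.03% in the 200 bases before the start. The cause of these changes was not tested.

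Leaving out single libraries gave, with Myc counted, 5 to 8 genes higher and 1 lower for AA in DM, 1 to 5 higher and 1 to 2 lower for AA in GM, 23 to 27 lower for DM against GM in PBS, 0 to 1 higher and 20 to 23 lower in AA, and 0 to 2 for the difference of effects. The medians of the 38 nucleolar genes were 0.095 to 0.14 for AA in DM, 0.021 to 0.059 for AA in GM, -0.33 to -0.30 and -0.32 to -0.25 for DM against GM in PBS and in AA, and 0.067 to 0.10 for the difference of effects.

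No pairing by replicate number was visible in the counts: the correlation of deviations was -0.0676 to 0.0823 for same-numbered libraries and -0.0763 to 0.0816 for others. Whether same-numbered libraries were prepared together cannot be read from these values. With the replicate block, 5 genes, with Myc counted, were higher and 1 lower for AA in DM, 3 and 1 for AA in GM, and 27 and 22 were lower for DM against GM in PBS and in AA. Depth limits Fbl, Npm3, Rrp9, Nle1 and Polr1e, with under 100 reads in every library.

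The counts of the other lists moved by over 1.5 times as follows. By DESeq2, the other small subunit factors were 4 higher for AA in DM, 0 lower for AA in GM and 3 higher in DM-PBS than in GM-PBS; the other large subunit factors were 3 higher for AA in DM and 3 in GM. By the same tool, the other polymerase I genes were 1 higher and 1 lower for AA in GM, those of polymerase III 0 lower for AA in DM and 1 lower in GM, nucleotide synthesis 3 higher for AA in DM, 0 in GM and 1 higher in DM-PBS, and ribosomal proteins 3 lower for AA in GM and 3 higher and 7 lower in DM-PBS. With the GC trend removed, with or without the replicate block, the other small subunit factors were 1 lower for AA in DM and 0 lower in GM, the other large subunit factors 1 lower for AA in GM and 2 higher in DM-PBS, polymerase I genes 1 higher for AA in GM, polymerase III genes 0 lower for AA in DM and 2 higher in GM, nucleotide synthesis 2 higher for AA in GM, and the partners of Myc 1 higher for AA in DM. The remaining alternatives moved only counts of at most 2 by this much, except the ribosomal proteins lower in DM-PBS, 6 with a mean of at least 50 reads and 7 with the RPKM divisor, and the ribosomal proteins lower for AA in GM, 5 with the block and GC trend removal together.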
